A study of Mus musculus with 29 samples.

Results

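The genes described here are those of the mitochondrial respiratory chain that are encoded in the nucleus. They were taken by a rule on gene symbols: every gene whose symbol begins with Ndufa, Ndufb, Ndufc, Ndufs, Ndufv, Sdha, Sdhb, Sdhc, Sdhd, Uqcr, Cox4i, Cox5, Cox6, Cox7, Cox8 or Atp5, leaving out the Ndufaf assembly factors. This gave 85 of the 22180 genes named on the array. By name, 32 belong to complex I, 4 to complex II, 7 to complex III, 19 to complex IV and 17 to complex V. The other 6 are Sdhaf1 to Sdhaf4, which help to assemble complex II and share the first letters of Sdha, and 2 pseudogenes.

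The respiratory chain lies in the inner mitochondrial membrane and couples the oxidation of nutrients to the making of ATP. Complex I takes electrons from NADH and complex II takes them from succinate, ubiquinone carries them to complex III, cytochrome c carries them on to complex IV, where oxygen is reduced, and complex V, the ATP synthase, uses the proton gradient. A few core subunits of complexes I, III, IV and V are encoded in mitochondrial DNA and were not analysed here. Hepatocytes are rich in mitochondria, since urea synthesis, gluconeogenesis and bile acid synthesis all draw on them.

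Whole livers came from male C57BL/6N mice aged 8 to 10 weeks on a standard diet, all labelled wt (wild type). In the bile duct ligation (BDL) groups the common bile duct was tied off outside the liver, which stops bile from leaving the organ, and the sham groups had the operation without the tie. BDL livers were taken at days 1, 3, 7 and 21 (5 arrays each) and sham livers at day 1 (3 arrays), day 3 (2 arrays) and day 7 (4 arrays), 29 arrays in all, 1 for each numbered animal. BDL at day 21 was set against sham at day 7, because no sham liver of day 21 was analysed here, so time after surgery and ligation cannot be told apart in that comparison.

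All values are log2 expression levels, on which a difference of -1 is a halving, and differences are given as the first-named group minus the second, with a standard error (SE). A gene was tested where its log2 value exceeded 5 in at least 3 arrays, which held for 14699 genes. Of the 85 genes of the chain 79 were tested and Ndufs5, Cox7b2, Cox8b, Cox8c and both pseudogenes were not. A gene was called where limma gave a Benjamini-Hochberg adjusted p under 0.05 over all genes tested. In 4 day 1 arrays, BDL replicates 2 and 3 and sham replicates 1 and 3, the spread of log2 values was low, with an SD of 1.55 to 1.58 against 1.64 to 1.70 in the other 25 arrays. For this reason the main counts, the medians by complex and the named calls of day 1 are repeated without them. Other day 1 values rest on all arrays. The hepatocyte marker genes averaged 12.29 to 12.54 over the arrays, and of the 11 tested 3 were called lower and 1 higher at day 7 (median log2 fold change -0.00). Of all genes tested, 4.97% were called lower and 14.2% higher at day 7.

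Livers with a ligated bile duct had lower transcript levels of respiratory chain genes, by a small amount spread over many of them. Of the 79 genes tested, 62 lay below zero at day 1, 70 at day 3, 72 at day 7 and 72 at day 21. Of all genes tested, 47.4%, 46.6%, 45.9% and 46.7% did on the same days. Without the 4 low-spread arrays, 52 lay below zero at day 1 with a median of -0.11, and 28 of the 79 had the opposite sign to that with all arrays. The median log2 fold change over the 79 was -0.15, -0.21, -0.21 and -0.20, against 0.02, 0.02, 0.03 and 0.02 over all genes tested. Over the 3309 genes tested whose mean log2 value exceeded 8, a level nearer to that of most subunits, it was 0.08, 0.03, 0.05 and 0.04. In whole tissue, fewer cells of a type and less RNA per cell cannot be told apart.

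The mean over the 79 genes was 8.39, 8.35, 8.19, 8.29 and 8.29 in the BDL arrays of day 1, against 8.41, 8.39 and 8.52 in sham. At day 3 it was 8.44, 8.45, 8.39, 8.30 and 8.43 in BDL, against 8.62 and 8.56 in sham. At day 7 it was 8.34, 8.51, 8.34, 8.33 and 8.34 in BDL, against 8.68, 8.47, 8.59 and 8.56 in sham. At day 21 the BDL arrays stood at 8.42, 8.31, 8.36, 8.37 and 8.29. The groups did not overlap at day 3, nor did BDL at day 21 overlap with sham at day 7. At day 7 BDL replicate 2 alone stood above the lowest sham array, and at day 1 the highest BDL array equalled the lowest sham array after rounding. In the plot of means by complex, each of the 5 complexes had a lower group mean in BDL on every day.

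**Figure D1:**
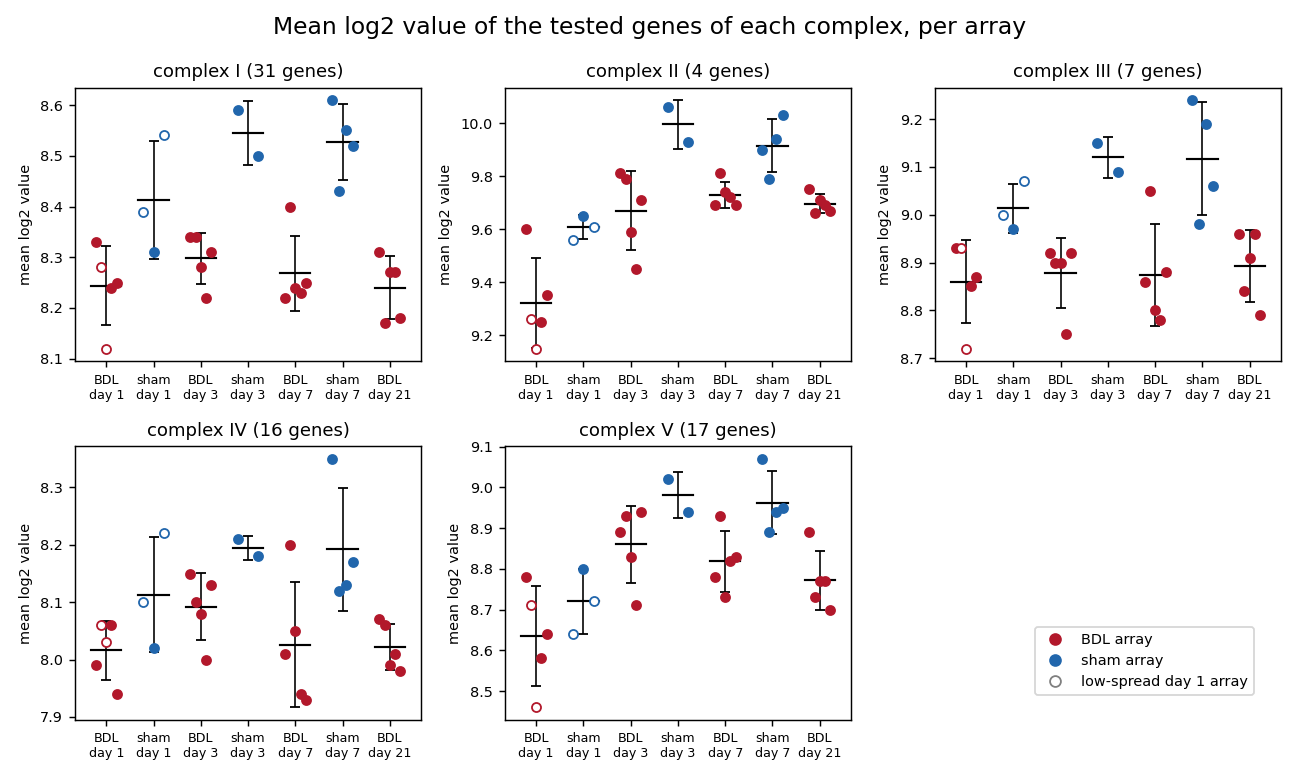
Mean log2 value of the tested genes of complexes I to V in each array, BDL in red and sham in blue, with the low-spread day 1 arrays open and bars for the group mean ± SD. For complex I the BDL arrays of day 21 lie at 8.17 to 8.31 and the sham arrays of day 7 at 8.43 to 8.61.

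From day 3 on, most of the genes called belonged to complex I, the largest of the complexes. Of its 31 tested genes, 2 were lower and 1 higher at day 1, and the later times had 4, 9 and 14 lower. These are 6.5%, 12.9%, 29% and 45.2% lower, beside 4.80%, 3.69%, 4.97% and 7.90% of all genes tested. At day 1 the share was near that of all genes. Complex II had 2, 0, 1 and 1 lower of 4, complex III 0, 0, 1 and 1 of 7, complex IV 0, 0, 0 and 1 of 16, and complex V 1, 0, 0 and 4 of 17. No gene of complexes II to V and none of Sdhaf1 to Sdhaf4 was called higher against sham. Of all genes tested, 8.52%, 6.47%, 14.2% and 17.3% were. Whether complex I differs from the other complexes was not tested. Its median log2 fold change was -0.16, -0.25, -0.25 and -0.24 on the 4 days, that of complex IV -0.11, -0.13, -0.18 and -0.16, and that of complex V -0.09, -0.11, -0.15 and -0.20. Without the low-spread arrays the day 1 medians were -0.10 for complex I, -0.24 for complex II, -0.18 for complex III, -0.01 for complex IV and -0.16 for complex V.

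**Figure D2:**
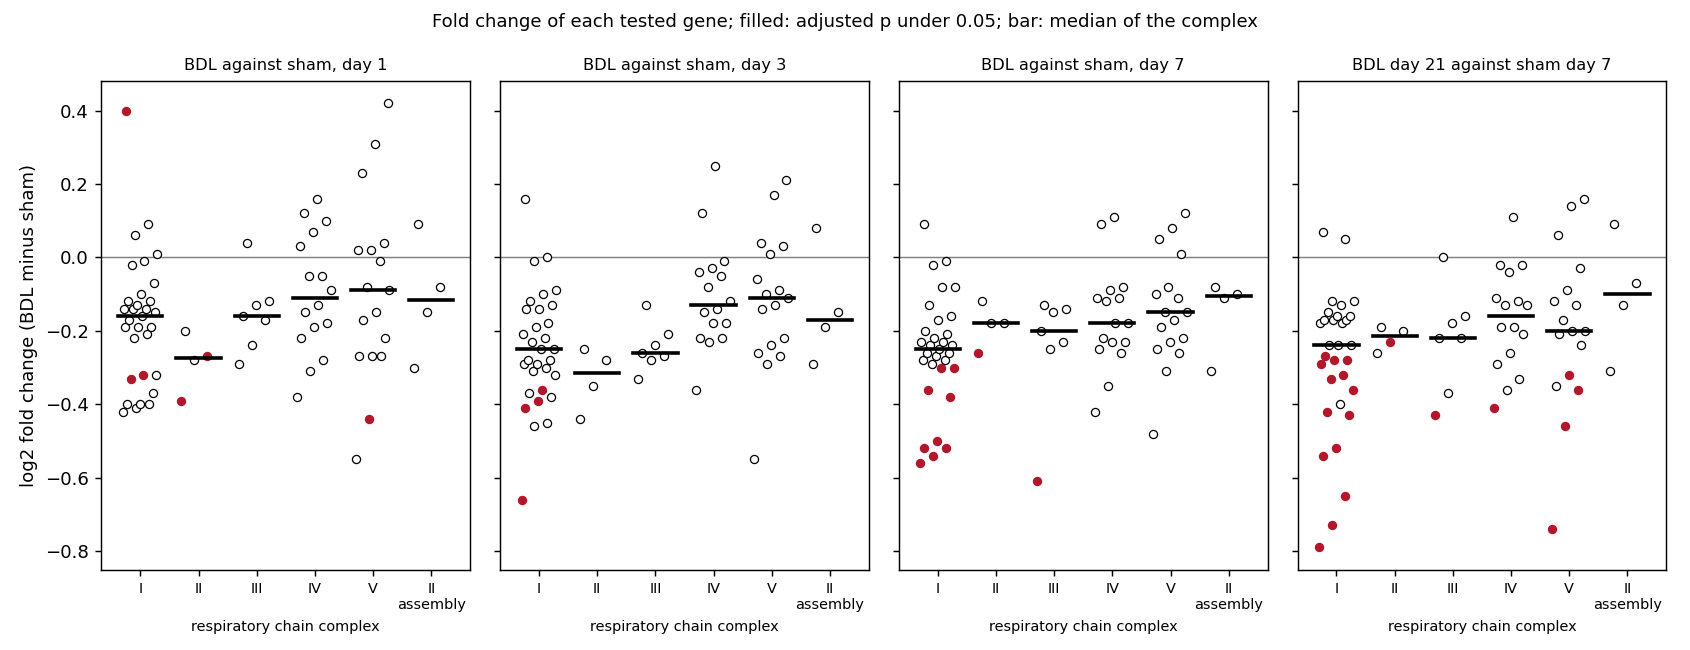
Log2 fold change of each tested gene in BDL against sham, by complex, for the 4 comparisons; filled points were called and the bar is the median of the complex. Most points lie below zero in each panel, and from day 3 on the filled ones are mostly of complex I.

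The promoters of these genes are shown because the subunits lie on many chromosomes yet are known to share regulators, among them the nuclear respiratory factor NRF1, the ETS-family factor GABP and the orphan receptor ERR alpha. RefSeq promoter sequences of assembly GRCm38.p6, 250 bases before to 50 after the start, were matched for 69 of the 85 genes. The NRF1 letters GCGCANGCG occurred on either strand in 19 of the 69 (27.5%), against 11.9% of 11452 promoters of genes tested on the array and 6.5% of all 27025 promoters. The ETS letters CCGGAAG occurred in 19 (27.5%), against 15.5% and 9.1%. The YY1 letters AAGATGGCG occurred in 5 (7.2%, against 2.7% and 1.5%), the ERR alpha letters TCAAGGTCA in 2 (2.9%, against 0.3% and 0.4%) and the cyclic AMP response letters TGACGTCA in 3 (4.3%, against 2.9% and 1.9%). In all 38 of the 69 held at least 1 of these motifs, and in none did different motifs overlap. A match describes these letters and is not a measured site.

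The stretches that follow belong to genes whose calls are described further on, 5′ to 3′ on the gene's own strand, with the motif letters of either strand in capitals, so that overlapping matches of both strands run together. In Ndufa5 (chr6:24527688-24527736, minus strand), Atp5k (chr5:108434420-108434469, minus strand) and Sdha (chr13:74350241-74350358, minus strand) the capitals are NRF1 letters. In Sdhd (chr9:50603869-50603948, minus strand) NRF1 letters come first and ETS letters after them. Uqcr11 (chr10:80406861-80406907, minus strand) holds ETS letters, and Atp5g3 (chr2:73911350-73911398, minus strand) ERR alpha letters read on the other strand. Elsewhere in their windows, not shown, Uqcr11 and Atp5g3 also hold NRF1 letters, Sdhd ERR alpha letters and Atp5k ETS letters.
Ndufa5: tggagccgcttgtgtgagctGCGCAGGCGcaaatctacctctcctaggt
Atp5k: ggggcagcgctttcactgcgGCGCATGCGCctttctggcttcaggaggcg
Sdha: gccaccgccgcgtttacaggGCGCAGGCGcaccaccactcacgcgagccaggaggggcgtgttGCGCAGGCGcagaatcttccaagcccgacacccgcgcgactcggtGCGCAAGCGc
Sdhd: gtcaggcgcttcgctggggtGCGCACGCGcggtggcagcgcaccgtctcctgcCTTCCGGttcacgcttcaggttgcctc
Uqcr11: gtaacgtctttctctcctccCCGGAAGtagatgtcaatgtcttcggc
Atp5g3: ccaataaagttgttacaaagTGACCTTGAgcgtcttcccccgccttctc

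At day 1, the first day after the duct was tied, 5 of the 79 genes were called lower and 1 higher in BDL, beside 4.80% lower and 8.52% higher of all genes tested. These were Atp5c1 of the ATP synthase, Sdhd and Sdha of complex II, Ndufa9 and Ndufb6 of complex I, and, higher, Ndufa8. The members' share called lower (6.3%) was close to that of all genes.

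Atp5c1, the gamma subunit that turns inside the catalytic head of the ATP synthase, stood at 6.63, 6.46, 6.15, 6.11 and 6.19 in the BDL arrays of day 1, against 6.77, 6.77 and 6.70 in sham. Every BDL array lay below every sham array, and the log2 fold change was -0.44 ± 0.11 SE (limma, adjusted p = 0.0088). Sdha, the flavoprotein that oxidises succinate, stood at 10.93, 10.69, 10.69, 10.70 and 10.74 in BDL, against 10.98, 11.00 and 11.07 in sham. BDL replicate 1 came closest to sham, and the groups did not overlap (-0.27 ± 0.08, adjusted p = 0.0284). Sdhd, a membrane anchor of complex II, stood at 9.38, 9.04, 8.92, 8.81 and 9.01 in BDL, against 9.43, 9.31 and 9.51 in sham. Here BDL replicate 1 lay within the sham range (-0.39 ± 0.11, adjusted p = 0.0223). The other subunits of complex II, the iron-sulphur protein Sdhb (-0.28 ± 0.13, adjusted p = 0.178) and the anchor Sdhc (-0.20 ± 0.18, adjusted p = 0.537), did not pass.

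Ndufa9, an accessory subunit near the ubiquinone site of complex I, stood at 9.02, 8.98, 8.72, 8.88 and 8.99 in BDL, against 9.06, 9.31 and 9.36 in sham. The groups lay apart by a small gap (-0.33 ± 0.10, adjusted p = 0.0221). Ndufb6, of the membrane arm, had a log2 fold change of -0.32 ± 0.10 (adjusted p = 0.0395). Ndufa8, a membrane arm subunit that faces the intermembrane space, went the other way, at 10.32, 9.92, 10.06, 10.18 and 10.37 in BDL, against 9.64, 9.91 and 9.74 in sham. Its fold change was 0.40 ± 0.10 (adjusted p = 0.00664), while a dimmer row of the array for the same gene had 0.17, and the mean of both rows was not called.

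None of these 6 calls remained without the 4 low-spread arrays, where a lone sham array is left and is taken to vary like the other groups. There the fold changes were -0.47 ± 0.18 for Atp5c1 (adjusted p = 0.16), -0.21 ± 0.12 for Sdha (0.406), -0.25 ± 0.18 for Sdhd (0.547), -0.34 ± 0.13 for Ndufa9 (0.169), -0.01 ± 0.14 for Ndufb6 (0.984) and 0.37 ± 0.13 for Ndufa8 (0.115). With the array set kept as a term of the model, 8 genes were called lower and 1 higher, beside 6.65% and 8.21% of all genes tested. The count called lower was 3 without sham day 1 replicate 1, 1 without sham replicate 3, 15 without sham replicate 2 and 2 without BDL replicate 4. Of all genes tested, 3.74%, 3.61%, 5.64% and 4.05% were, in the same order. The count called higher was 0 without sham replicate 1 and 3 without sham replicate 2, beside 4.96% and 13.1% of all genes tested.

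At day 3, with 5 BDL and 2 sham arrays, 4 of the 79 genes were called lower and none higher, beside 3.69% lower and 6.47% higher of all genes tested. All 4 belong to complex I, and the members' share (5.1%) was close to that of all genes. At an unadjusted p under 0.05, limma had 21 lower and 0 higher. How many of all genes tested passed that threshold was not counted, here or for the later unadjusted counts. Ndufb3, a small membrane arm subunit, stood at 5.84, 6.14, 5.96, 6.01 and 5.95 in BDL, against 6.76 and 6.53 in sham. Both sham arrays lay above all BDL arrays, and the fold change was -0.66 ± 0.16 (adjusted p = 0.00611).

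Ndufb8, of the same arm, stood at 6.69, 6.58, 6.79, 6.71 and 6.64 in BDL, against 7.15 and 7.04 in sham (-0.41 ± 0.11, adjusted p = 0.0124). Ndufa9 stood at 9.50, 9.36, 9.26, 9.22 and 9.14 in BDL, against 9.74 and 9.63 in sham (-0.39 ± 0.11, adjusted p = 0.022). Ndufs1, which carries iron-sulphur clusters of the electron entry arm, stood at 8.71, 8.61, 8.57, 8.34 and 8.48 in BDL, against 9.03 and 8.78 in sham (-0.36 ± 0.12, adjusted p = 0.0423). In none of the 3 did the groups overlap. Sdhb (-0.44 ± 0.15, adjusted p = 0.0632), Uqcrc2, a core protein of complex III (-0.33 ± 0.12, adjusted p = 0.0749), and Cox4i1, the common isoform of a complex IV subunit (-0.36 ± 0.17, adjusted p = 0.188), did not pass. The sham pair decided the count: leaving out sham day 3 replicate 1 gave 0 calls, and leaving out replicate 2 gave 1. It was 7 without BDL day 3 replicate 2 and 2 without replicate 5, beside 4.31% and 3.23% of all genes tested.

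At day 7, 11 of the 79 genes were called lower in BDL and none higher, beside 4.97% lower and 14.2% higher of all genes tested. The members' share called lower was 13.9%, and it was 29% among the 31 genes of complex I. The 6 with the largest falls were Uqcr11, Ndufa5, Ndufa1, Ndufb10, Ndufb11 and Ndufb3.

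Uqcr11, a small supernumerary subunit of complex III, stood at 7.18, 7.24, 7.11, 7.06 and 7.14 in the BDL arrays of day 7, against 8.07, 7.64, 7.80 and 7.53 in sham. The BDL arrays lay close together and below all of sham (-0.61 ± 0.15, adjusted p = 0.00453). Ndufa5, of the arm of complex I that reaches into the matrix, stood at 6.64, 7.03, 6.93, 6.77 and 6.57 in BDL, against 7.51, 7.22, 7.46 and 7.21 in sham (-0.56 ± 0.17, adjusted p = 0.0168). Ndufb10, of the membrane arm, stood at 7.00, 7.32, 7.16, 7.13 and 7.10 in BDL, against 7.78, 7.53, 7.71 and 7.64 in sham (-0.52 ± 0.13, adjusted p = 0.00532). The groups did not overlap in either gene, and BDL replicate 2 was the highest BDL array in both.

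Ndufb3 stood at 5.84, 6.28, 6.03, 6.33 and 5.97 in BDL, against 6.47, 6.55, 6.58 and 6.74 in sham, without overlap (-0.50 ± 0.13, adjusted p = 0.00557). Ndufa1, a small membrane subunit needed for the assembly of complex I, stood at 8.26, 8.96, 8.59, 8.49 and 8.40 in BDL, against 9.27, 8.89, 8.97 and 9.18 in sham. BDL replicate 2 alone reached the sham range (-0.54 ± 0.19, adjusted p = 0.0406). Ndufb11, also of the membrane arm, stood at 5.48, 5.69, 5.56, 5.60 and 5.45 in BDL, against 6.30, 6.16, 6.17 and 5.67 in sham, where replicate 4 lay among the BDL arrays (-0.52 ± 0.16, adjusted p = 0.0183). Of complex II, Sdha stood at 11.03, 11.13, 10.95, 10.95 and 11.05 in BDL, against 11.32, 11.20, 11.28 and 11.34 in sham (-0.26 ± 0.08, adjusted p = 0.014). The other 4 called genes, named here after their values were seen so that the count is complete, were Ndufb5, Ndufb8, Ndufa9 and Ndufs7, with fold changes of -0.38, -0.36, -0.30 and -0.30.

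**Figure D3:**
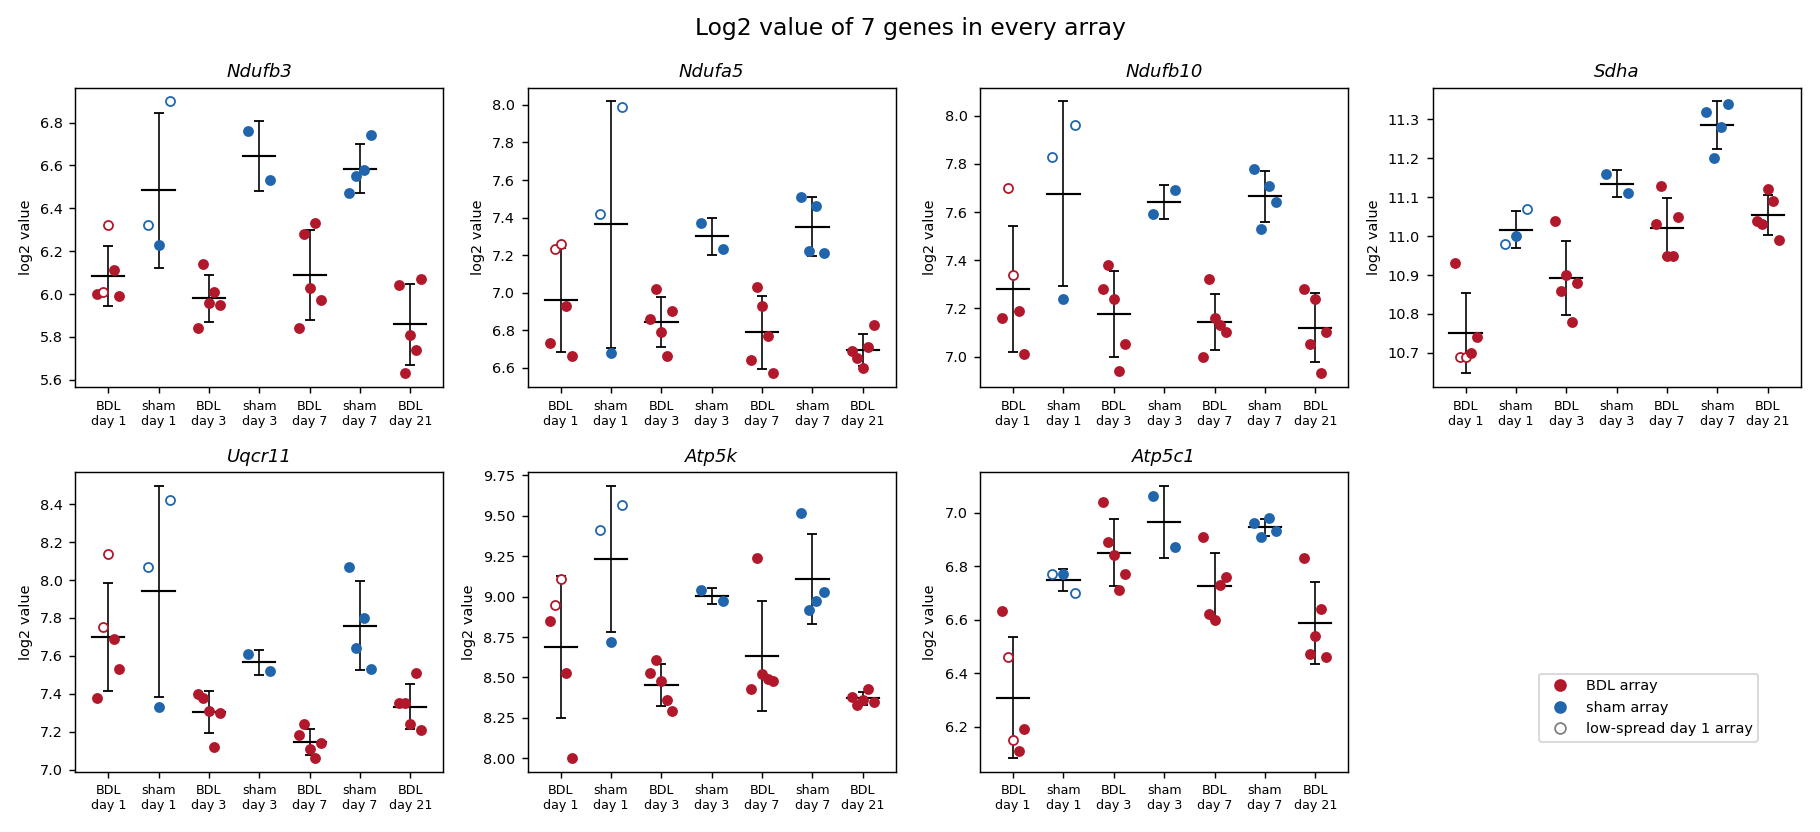
Log2 value of Ndufb3, Ndufa5, Ndufb10, Sdha, Uqcr11, Atp5k and Atp5c1 in each array, BDL in red and sham in blue, with the low-spread day 1 arrays open and bars for the group mean ± SD. Ndufb3 lies at 5.63 to 6.07 in BDL at day 21 and at 6.47 to 6.74 in sham at day 7.

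Leaving out single arrays kept the calls of Uqcr11, Ndufb10 and Ndufb3 at day 7 in all 9 cases, whereas Ndufa1 passed in only 2 of the 9. Leaving out sham day 7 replicate 1 or replicate 3 gave 7 genes called lower each time, and leaving out BDL day 7 replicate 2 gave 19. Of all genes tested, 4.45%, 3.96% and 4.94% were called lower, in the same order. Centring each array on its median moved the median of all genes tested to -0.10 at day 7 and -0.11 at day 21. Centring shifts all genes of an array by the same amount. The place of the 79 genes relative to that median, -0.23 and -0.22, therefore could not change. The counts called lower were 34 and 41, beside 12.98% and 17.79% of all genes tested.

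At day 21, against sham at day 7, 21 of the 79 genes were called lower in BDL and none higher, beside 7.90% lower and 17.3% higher of all genes tested. This is 26.6% of the genes tested, and 45.2% of the 31 genes of complex I. The same 4 sham arrays serve here and at day 7, so the comparisons are not independent. The largest falls were those of Ndufa1, Atp5k, Ndufb3, Ndufa5, Ndufb10 and Ndufab1, and each of these 6 calls held with any single array left out.

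Ndufa1 stood at 8.26, 8.21, 8.41, 8.31 and 8.26 in BDL at day 21, against 9.27, 8.89, 8.97 and 9.18 in sham at day 7 (-0.79 ± 0.19, adjusted p = 0.00202). Ndufb3 stood at 6.04, 5.63, 5.81, 5.74 and 6.07 in BDL, against 6.47, 6.55, 6.58 and 6.74 in sham (-0.73 ± 0.13, adjusted p = 7.06e-05). Ndufa5 stood at 6.69, 6.65, 6.60, 6.71 and 6.83 in BDL, against 7.51, 7.22, 7.46 and 7.21 in sham (-0.65 ± 0.17, adjusted p = 0.00415). In all 3 genes the BDL arrays lay clear of sham, with the widest gap in Ndufa1.

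Atp5k, subunit e of the ATP synthase, which takes part in pairing synthases along the cristae, stood at 8.38, 8.33, 8.36, 8.43 and 8.35 in BDL at day 21, against 9.52, 8.92, 8.97 and 9.03 in sham at day 7 (-0.74 ± 0.19, adjusted p = 0.00388). The 5 BDL arrays were close together, and sham replicate 1 was the highest. At day 7 the gene stood at 8.43, 9.24, 8.52, 8.49 and 8.48 in BDL, and with replicate 2 inside the sham range it did not pass (-0.48 ± 0.19, adjusted p = 0.0759). Ndufb10 stood at 7.28, 7.05, 7.24, 6.93 and 7.10 in BDL at day 21, against 7.78, 7.53, 7.71 and 7.64 in sham at day 7 (-0.54 ± 0.13, adjusted p = 0.00287). Ndufab1, the mitochondrial acyl carrier protein and also a part of complex I, stood at 6.30, 6.17, 6.09, 6.27 and 5.79 in BDL, against 6.76, 6.35, 6.65 and 6.82 in sham (-0.52 ± 0.12, adjusted p = 0.00152). Neither gene had an overlap, though sham replicate 2 lay just above the highest BDL array for Ndufab1.

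The electron entry arm of complex I was called in several genes. Ndufs1 was at -0.32 ± 0.09 (adjusted p = 0.0117), Ndufv1, which binds NADH, at -0.28 ± 0.10 (adjusted p = 0.0448), and the iron-sulphur protein Ndufv2 at -0.27 ± 0.09 (adjusted p = 0.0306). Of the 6 measured core subunits of complex I, 0, 1, 1 and 4 were called lower on the 4 days, those of day 21 being Ndufs1, Ndufv1, Ndufv2 and Ndufs7. Of all genes tested, 4.80%, 3.69%, 4.97% and 7.90% were. Sdha was at -0.23 ± 0.08 (adjusted p = 0.0258), and Cox7a2, the complex IV isoform found in liver and most tissues, at -0.41 ± 0.11 (adjusted p = 0.00743). The remaining calls, named after their values were seen to complete the count, were Atp5g3, Atp5c1, Atp5h, Uqcr11, Ndufa9, Ndufb8, Ndufb5, Ndufa12, Ndufs7 and Ndufa3, with fold changes of -0.46, -0.36, -0.32, -0.43, -0.43, -0.42, -0.36, -0.33, -0.29 and -0.28. Leaving out sham day 7 replicate 1, or BDL day 21 replicate 2 or replicate 5, gave 13 genes called lower each time. Of all genes tested, 7.12%, 6.88% and 6.62% were called lower, in the same order.

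Ndufb3 had fold changes of -0.40, -0.66, -0.50 and -0.73 at days 1, 3, 7 and 21, called from day 3 on. Ndufa9, with -0.33, -0.39, -0.30 and -0.43, was called on all 4 days; without the low-spread arrays its day 1 value was about the same (-0.34) and was not called. Ndufa1, with -0.02, -0.37, -0.54 and -0.79, was called at days 7 and 21, and its day 1 value was 0.42 without the low-spread arrays, also not called. Sdha, with -0.27, -0.25, -0.26 and -0.23, was called at days 1, 7 and 21.

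Several central subunits were not called at any of the 4 times. Atp5b, the catalytic beta subunit of the ATP synthase, had fold changes of 0.02, -0.13, 0.01 and 0.06 at days 1, 3, 7 and 21, with SE of 0.11 to 0.13. Atp5a1, the alpha subunit, had -0.09, -0.10, -0.11 and -0.09. Uqcrc1, a core protein of complex III, had -0.12, -0.21, -0.14 and -0.18, and the Rieske iron-sulphur protein Uqcrfs1 had -0.16, -0.28, -0.13 and -0.16. In complex IV, Cox5a had -0.31, -0.15, -0.23 and -0.29, Cox6a1 had 0.03, -0.18, -0.11 and -0.12, and Cox6b1 had -0.13, -0.08, -0.08 and -0.13. Cox8a had -0.05, -0.14, -0.12 and -0.19, Cox7a2l had 0.12, -0.18, -0.23 and -0.13, and Cox5b had -0.22, -0.03, -0.35 and -0.36. Atp5g1, a gene for the ring subunit c, had -0.15, -0.09, -0.23 and -0.20, and Ndufa4, now placed in complex IV, -0.19, -0.22, -0.09 and -0.11. Without the low-spread arrays the day 1 values of Atp5b, Cox5b and Cox7a2l changed sign, to -0.30, 0.07 and -0.01, and were again not called. Lack of a call does not show that these levels were alike, since the median SE over the members was 0.121 at days 7 and 21.

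Of the isoforms used mainly outside the liver, none of those tested was called against sham. Cox4i2, the isoform of lung, averaged 4.94 ± 0.11 in BDL at day 21 and 5.15 ± 0.12 in sham at day 7 (SD, n = 5 and 4). The striated muscle isoforms Cox6a2 and Cox7a1 averaged 6.00 ± 0.31 and 4.95 ± 0.09 in BDL at day 21, against 6.03 ± 0.14 and 4.97 ± 0.28 in sham at day 7. Cox6a2 stood at 6.53 in BDL day 21 replicate 2 and at 5.76 to 5.99 in the other arrays of that group. Ndufa4l2, a hypoxia-inducible relative of Ndufa4, averaged 5.40 ± 0.20 in BDL at day 21 and 5.29 ± 0.12 in sham at day 7. Cox6b2, the isoform of testis, averaged 5.01 ± 0.12 and 5.05 ± 0.19 in the same groups. Cox8b, of muscle and brown fat, was not tested, and stood at 3.31 to 4.94 over all arrays with both highest values in the sham arrays of day 3.

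Between successive days after ligation, the chain differed most between day 3 and day 1. In BDL at day 3 against BDL at day 1, 21 of 79 genes were called higher and 4 lower, beside 12.0% higher and 6.44% lower of all genes tested, with a median log2 fold change of 0.11 over the members. Cox7b, a supernumerary subunit of complex IV, stood at 9.02, 8.85, 9.07, 8.63 and 9.05 at day 3, against 8.61, 7.46, 6.80, 8.40 and 8.40 at day 1. The low-spread replicates 2 and 3 were the lowest of day 1, and the fold change was 0.99 ± 0.25 (adjusted p = 0.0072) with them and 0.45 ± 0.14 (adjusted p = 0.0391) without.

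Sdhc was higher by 0.72 ± 0.16 (adjusted p = 0.00257) with those arrays and by 0.41 ± 0.12 (adjusted p = 0.0351) without. Atp5l, subunit g of the ATP synthase, was higher by 0.69 ± 0.19 (adjusted p = 0.0131) with them and by 0.39 ± 0.12 (adjusted p = 0.0484) without. Atp5c1 was higher by 0.54 ± 0.10 (adjusted p = 0.000436) with all arrays and by 0.54 ± 0.11 (adjusted p = 0.00346) without the 4. Lower at day 3 were Ndufa1 (-0.64 ± 0.18, adjusted p = 0.0117), Ndufa6, a complex I subunit (-0.45 ± 0.12, adjusted p = 0.0116), and Uqcrq, a supernumerary subunit of complex III (-0.37 ± 0.13, adjusted p = 0.0496). Without the low-spread arrays they were at -0.37, -0.28 and -0.17, with adjusted p of 0.065, 0.091 and 0.424.

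Without those arrays 12 genes were called higher and 0 lower, and 10 and 0 with the array set as a term. The split was 14 higher and 5 lower with median centring (9.27% and 11.08% of all genes tested) and 15 and 5 with cyclic loess (11.17% and 8.59%). Without BDL day 1 replicate 3 alone 9 were called higher and 2 lower, beside 7.6% and 4.16% of all genes tested. Called lower were 2 without BDL day 1 replicate 2 or 4 or without BDL day 3 replicate 1, 2, 3 or 4. In these settings 4.49% to 5.87% of all genes tested were lower.

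**Figure D4:**
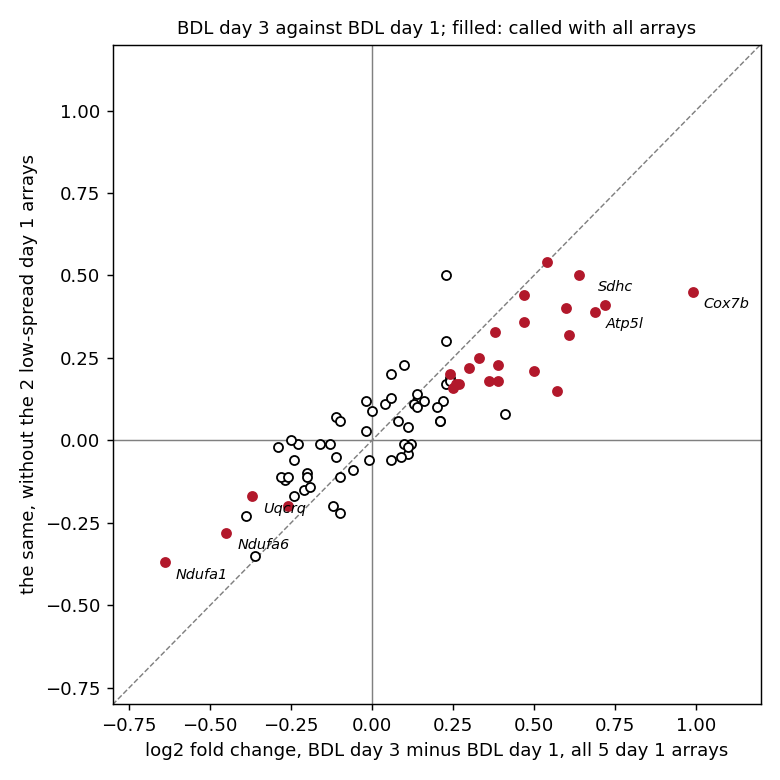
Log2 fold change of the 79 tested genes in BDL at day 3 against BDL at day 1, with all arrays on the horizontal axis and without the 2 low-spread BDL arrays of day 1 on the vertical axis; filled points were called with all arrays and the dashed line marks equal values. Cox7b lies at 0.99 and 0.45, and the range over all genes is -0.64 to 0.99 with and -0.37 to 0.54 without those arrays.

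After day 3 no member of the chain was called between successive days. In BDL at day 7 against day 3, 0 genes were called lower and 0 higher, beside 1.10% and 4.60% of all genes tested. At an unadjusted p under 0.05, limma had 2 lower and 0 higher. In BDL at day 21 against day 7 the counts were again 0 and 0, beside 0.463% lower and 0.401% higher, with 1 lower and 0 higher at an unadjusted p under 0.05. The medians were -0.02 in both.

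The sham arrays of day 1 and day 7 were also compared. In sham at day 1 against sham at day 7, 11 of the 79 genes were called lower and 0 higher, beside 2.96% lower and 1.15% higher of all genes tested. Cox7b stood at 7.54, 8.67 and 7.31 in sham at day 1, against 9.15, 8.63, 9.08 and 9.03 at day 7 (-1.14 ± 0.30, adjusted p = 0.0338). Atp5l stood at 8.50, 9.54 and 8.19 at day 1, against 9.82, 9.72, 9.97 and 9.81 at day 7 (-1.09 ± 0.23, adjusted p = 0.02). In both genes replicate 2, the day 1 sham array of ordinary spread, was nearest to day 7. Ndufb9, of the membrane arm, was at -0.84 ± 0.20 (adjusted p = 0.0278).

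Without the low-spread arrays, with the array set as a term, or with only the groups compared, 0 members were called, and of all genes tested 1, 1 and 0 were, so a change with time in sham is not shown. The fold changes without the low-spread arrays were -0.31 ± 0.21 for Cox7b, -0.29 ± 0.19 for Atp5l and -0.12 ± 0.16 for Ndufb9. The count called lower was 0 without sham day 1 replicate 1 or 3, 3 without sham day 7 replicate 1 or 4, and 2 without sham day 7 replicate 3. Of all genes tested, 0.05%, 0.01%, 1.22%, 1.02% and 0.28% were, in the same order. Without sham day 1 replicate 2 it was 19, with 10 higher, beside 14.34% lower and 6.37% higher of all genes tested. The members' median was -0.12, against -0.03 over all genes tested and -0.17 over the genes with a mean log2 value above 8.

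Whether the effect of ligation differed between days 7 and 1 was tested as the difference of both effects. It had 0 genes called lower and 0 higher of 79, beside 0.857% lower and 3.48% higher of all genes tested, with a lowest adjusted p of 0.14. At an unadjusted p under 0.05, limma had 3 lower and 0 higher. The larger number of calls at day 7 is therefore not shown to be a larger effect. Without BDL day 1 replicate 3 or sham day 1 replicate 2 the count called lower was 1, beside 0.81% and 2.24% of all genes tested.

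The rest of the oxidative machinery was read from lists of partner genes, whose counts called lower stand beside 4.80%, 3.69%, 4.97% and 7.90% of all genes tested on the 4 days. Those called higher stand beside 8.52%, 6.47%, 14.2% and 17.3%. Of 14 tested assembly factors of complex I, 0 were called lower at day 1, 4 at day 3, 4 at day 7 and 6 at day 21, none higher (0, 28.6, 28.6 and 42.9%). Ndufaf6 was at -0.60 ± 0.14 at day 7 and -0.80 ± 0.14 at day 21, and Ndufaf4 at -0.47 ± 0.12 and -0.44 ± 0.12. At day 3 Ndufaf1, an early assembly factor, was at -0.62 ± 0.17 and Ecsit at -0.55 ± 0.13. Of 25 tested assembly factors of complexes III, IV and V, 2, 2, 2 and 7 were called lower on the 4 days (8, 8, 8 and 28%) and none higher, with Uqcc1 at -0.54 ± 0.11 and Lrpprc, which stabilises mitochondrial transcripts, at -0.49 ± 0.10 at day 21.

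Cyc1, the cytochrome c1 of complex III that the symbol rule leaves out, averaged 8.78 ± 0.12 in BDL at day 7 (SD, n = 5), against 9.07 ± 0.15 in sham (n = 4), with a fold change of -0.29 ± 0.10 (adjusted p = 0.0318). At day 21 it averaged 8.70 ± 0.10 in BDL (-0.37 ± 0.10, adjusted p = 0.00473). Cycs, cytochrome c itself, was at -0.13 ± 0.10 at day 7 and -0.23 ± 0.10 at day 21 and did not pass. Of 26 tested genes of the mitochondrial ribosome, 1, 1, 3 and 7 were called lower on the 4 days (3.8, 3.8, 11.5 and 26.9%), and 1 higher at day 1. At days 1 and 3 this share was near that of all genes. Mrps10 at -0.43 ± 0.12 and Mrpl1 at -0.41 ± 0.10 had the largest falls at day 21.

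Of 14 tested import genes, 1, 1, 1 and 3 were called lower (7.1, 7.1, 7.1 and 21.4%), Timm9, a chaperone of the intermembrane space, each time, at -0.45, -0.46, -0.58 and -0.96. The tricarboxylic acid cycle list went both ways. Of 17 tested, 3, 2, 2 and 4 were lower (17.6, 11.8, 11.8 and 23.5%) and 0, 0, 1 and 2 higher, with Pdhb, a subunit of pyruvate dehydrogenase, at -0.82 ± 0.10 and Idh2 at 0.68 ± 0.12 at day 21. Of 12 ubiquinone synthesis genes tested, 2, 2, 2 and 4 were lower (16.7, 16.7, 16.7 and 33.3%) and 1 higher each day, the higher one being Coq8b, at 1.12, 1.74, 0.86 and 1.07.

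**Figure D5:**
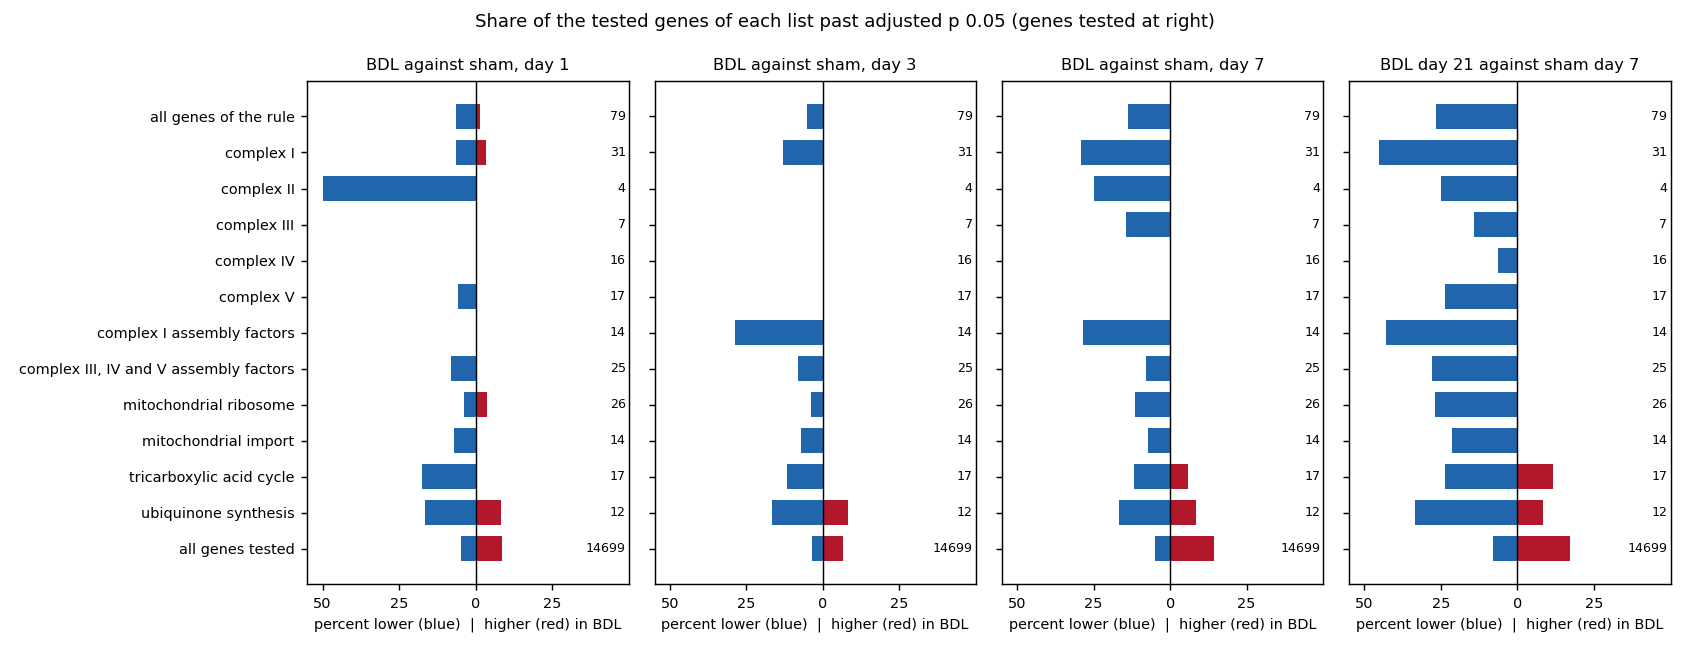
Share of the tested genes of each list called lower (blue, to the left) or higher (red, to the right) in BDL, for the 4 comparisons, with the number tested at the right of each panel. At day 21 complex I has 45.2% lower, against 7.90% of all genes tested.

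Markers of other cells moved alongside. Of all genes tested, 8.52%, 6.47%, 14.2% and 17.3% were called higher at days 1, 3, 7 and 21, and 4.80% lower at day 1. Of the 12 macrophage markers 5, 6, 12 and 12 were called higher at days 1, 3, 7 and 21 and 1 lower at day 1, and their mean over each array was 8.56 to 9.13 in BDL at day 21, against 6.88 to 7.30 in sham at day 7. Of 12 stellate cell and matrix markers, 1, 4, 9 and 11 were called higher and 1 lower at day 1, with array means of 8.37 to 9.01 in BDL at day 21 and 6.72 to 8.11 in sham at day 7. The 8.11 was that of sham replicate 1, and the other sham arrays of day 7 stood at 6.74, 7.07 and 6.72. Replicate 1 was also the highest of these sham arrays for the mean over the 79 genes of the chain (8.68). Of 8 tested cholangiocyte markers, 2, 6, 8 and 8 were called higher, with means of 6.47 to 6.89 in BDL at day 21 and 5.33 to 5.60 in sham at day 7. Hepatocyte markers averaged 12.42 to 12.54 in BDL at day 21 and 12.42 to 12.50 in sham at day 7. The part of a changed cell mixture in the lower subunit levels was not tested.

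Over the 29 arrays the mean of the 79 genes ran most nearly with Hspd1, a mitochondrial chaperone (Pearson r = 0.885), Cyc1 (0.871), Mccc2 (0.865), Stard7 (0.845) and Pdhb (0.838). Without the 4 low-spread arrays it did so with Cyc1 (0.924), Hspd1 (0.887), Etfa and Etfrf1 (0.878 each) and Stard7 (0.871). The macrophage gene Cd68 had r = -0.487 over 29 arrays and -0.716 over 25, and albumin (Alb) -0.03 and -0.17. The cholangiocyte keratin Krt19 had -0.391 and -0.495, the leukocyte gene Ptprc -0.24 and -0.457, and the collagen gene Col1a1 -0.183 and -0.279. These are descriptions across arrays that share normalization and groups.

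For 10 of the members the array has a second row of 1 symbol, and the brighter was used. Both rows of Atp5g2 correlated at r = 0.99 over the 29 arrays, those of Ndufa11 at 0.04, and 6 of the other 8 lay under 0.45. At day 7 the rows of Atp5d were at 0.12 and -0.31, with opposite signs, and those of Ndufa11 at -0.24 and 0.32. The second row of Ndufa12 (r = 0.37) was at 0.04 at day 21, where the row used was called at -0.33. At day 1 the rows of Cox5b were at -0.22 and 0.31, and those of Atp5e at -0.27 and 0.18. The values of Ndufa11 and Atp5d, of Ndufa12 at day 21 and of Cox5b and Atp5e at day 1 are therefore uncertain in direction. Rows of opposite sign were also found for Ndufa8 at days 3 and 7 and for Ndufa12 and Cox5b at day 3. At day 1 they were found for Atp5h and Sdhaf1 too. Cox7b also has a second, dimmer row (r = 0.24), at -0.66 against 0.10 for the row used at day 1.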

How the data were processed

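Whole-liver RNA of 29 mice was measured on 1 array each. The authors deposited log2 expression values, made with RMA and oligo 1.52.0 per the submitters' processing notes. The genome build, and which arrays were normalized together, are not given in the sources used here. Per the labels, the protocol names another array than the one whose annotation the row IDs match. Depth does not apply to arrays, and the number of arrays limits the precision.

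Of 41345 rows, 23521 have 1 gene symbol, 1814 have several and 16010 are unnamed here; only rows of 1 symbol were used, giving 22180 genes. For a gene on more than 1 row, the brightest row on average stands for it. A further 9 genes of the rule (Cox6c, Ndufb2, Ndufb4, Ndufb4b, Ndufb4c, Ndufs5-ps, Ndufs6, Ndufs6b and Uqcr10) lie only on rows of several symbols and were not analysed here.

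The deposited log2 values were fitted in 1 limma model (limma 3.58.1, R 4.3.3, moderated test, two-sided) over the 7 groups, with Benjamini-Hochberg adjustment over the 14699 genes that passed the filter; tables were made with Python 3.11.15, and the scripts were tested on simulated data. The p-values reflect only the animal-to-animal spread within these groups. The members and the gene lists were chosen with earlier results of these data known. Named genes are the 6 largest falls and 4 largest rises called per comparison with sham, 3 and 3 for other comparisons, up to 3 per partner list, and a set of central subunits and isoforms. Alternatives were no filter, a filter at 6, the mean of a gene's rows, cyclic loess, median centring, the low-spread arrays as a term or left out, a variance trend with robust fitting, only the groups compared, all 9 sham arrays as 1 group, and each array left out in turn.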

Additional observations from a re-analysis of the deposited data

Results flagged for a closer look

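Within-group spread was checked in 255 groups of 4 or 5 arrays (member genes and means of complexes) by Dixon's test at 95%, and 16 had 1 array far from the others. Chance flags about 1 group in 20, and these groups share arrays.

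Of the BDL arrays of day 7, one stood high for Atp5k at 9.24 (next highest 8.52), for Cox4i1 at 10.15 (9.74), for Cox7a2 at 9.44 (9.07), for Sdhb at 9.31 (8.89) and for Ndufs1 at 8.71 (8.60). The mean over all tested members was high in one array of that group at 8.51 (8.34), and so was the mean of complex I at 8.40 (8.25). In each of these cases the array is replicate 2. Without it 19 members were called lower at day 7, beside 4.94% of all genes tested.

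The flags in the BDL arrays of day 1 fell on different arrays. Replicate 2 was high for Ndufv1 at 9.53 (next 9.26) and replicate 1 was high for Sdha at 10.93 (10.74). Replicate 3 was low for Cox8a at 9.83 (next 10.20). In BDL at day 3 replicate 2 was low for Cox4i2 at 4.75 (4.93), and another array, replicate 4, for the mean of complex III at 8.75 (8.90). In BDL at day 21 one was high for Cox6b2 at 5.22 (4.99). In sham at day 7 one array was high for Sdhc at 9.93 (9.54), one low for Sdhd at 9.53 (9.69) and one low for Ndufs1 at 8.78 (8.87).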

How the results depend on the processing

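No paired analysis was possible because the replicate numbers only follow the order of the samples and link no animals between groups. No call of the named members changed direction under any setting tried, and other calls were not checked for this. Uncalled values did change direction: 28 of 79 members turned sign at day 1 without the low-spread arrays. Of 566 settings of named members, 463 kept the call and 103 lost it; of the other results, 235 stayed close to the reported value and 47 moved. Why they moved was not tested. At day 1, members called lower numbered 3 with no filter, 12 with cyclic loess, 8 with the array set as a term, 0 without the low-spread arrays, 0 with only the groups compared and 32 against all 9 sham arrays (median -0.24, beside 10.68% of all genes tested); those called higher were 0 with the mean of rows, without the low-spread arrays and with only the groups compared. Of all genes tested, 2.87% were lower at day 1 with no filter and 6.94% with cyclic loess. With the array set as a term the share was 6.65%, and with only the groups compared 2.08%. Called higher were 8.38% with the mean of rows and 3.21% with only the groups compared. At day 3, 7 members were lower with cyclic loess (4.61% of all genes tested) and 12 with median centring (5.12%). There were 9 with the array set as a term (4.95%), 11 without the low-spread arrays (5.33%) and 2 with only the groups compared (2.23%). Against all 9 sham arrays there were 14 (8.66%, median -0.13). At day 7, 19 were lower with cyclic loess (7.95% of all genes tested, median -0.28) and 34 with median centring (12.98%, median -0.33). There were 17 with the array set as a term (6.54%), 19 without the low-spread arrays (7.01%) and 21 against all 9 sham arrays (8.56%). At day 21, 41 were lower with median centring (17.79% of all genes tested, median -0.33). Between BDL days 3 and 1, those lower were 2 with no filter (3.82% of all genes tested) and 2 with only the groups compared (4.13%). With the array set as a term or without the low-spread arrays 0 were lower (4.39% and 4.37%). Those higher were 10 with the array set as a term (5.67%), 12 without the low-spread arrays (5.72%) and 11 with only the groups compared (8.54%). The median was 0.03 with median centring, which gave -0.10 between days 7 and 3. Of all genes tested in sham, 1.23%, 1.88% and 2.17% were called lower with no filter, cyclic loess and median centring. In sham, 6 were lower with no filter, 6 with cyclic loess (median -0.02), 7 with median centring, and 0 with the array set as a term, without the low-spread arrays (median -0.19) or with only the groups compared. For the difference of effects, 1 was lower with median centring (median -0.15), 2 without the low-spread arrays and 1 with the array set as a term. With 1 array left out, members called lower ranged over 1 to 15 at day 1 (higher 0 to 3, median -0.19 to -0.11), 0 to 7 at day 3 (median -0.22 to -0.18), 7 to 19 at day 7 (median -0.24 to -0.18), 13 to 20 at day 21 (median -0.25 to -0.18), 2 to 5 between BDL days 3 and 1 (higher 9 to 23, median 0.07 to 0.13), 0 to 19 in sham (higher 0 to 10, median -0.18 to -0.10) and 0 to 1 for the difference of effects (median -0.09 to -0.01).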

Other observations

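Regulators of mitochondrial biogenesis were read from a list of 19 tested genes, of which 1, 1, 2 and 5 were called lower and 1, 1, 0 and 0 higher at days 1, 3, 7 and 21. Of all genes tested, 4.80%, 3.69%, 4.97% and 7.90% were lower and 8.52%, 6.47%, 14.2% and 17.3% higher. Ppara, the receptor that drives fatty acid oxidation in hepatocytes, was lower in BDL each time, at -1.06 ± 0.16, -0.94 ± 0.18, -0.99 ± 0.14 and -1.38 ± 0.14 (limma, adjusted p = 3.26e-05, 0.000886, 9.66e-06 and 3.35e-08). Tfam, which packs and transcribes mitochondrial DNA, was at -0.55 ± 0.14 at day 21 (adjusted p = 0.00483), as were Polg2 at -0.69 ± 0.16 (adjusted p = 0.00142) and the coactivator Ppargc1b at -0.55 ± 0.18 (adjusted p = 0.0269). The related coactivator Ppargc1a was higher at day 3, at 1.44 ± 0.42 (adjusted p = 0.025), and not called at the other times. Of the factors whose motif letters were searched in the promoters, Nrf1, Gabpa and Esrra were not called against sham: Nrf1 was at 0.06, -0.23, -0.05 and 0.01, Gabpa at 0.02, -0.40, -0.23 and -0.31, and Esrra at -0.04, -0.19, -0.12 and -0.08. Nrf1 was lower in BDL at day 3 against BDL at day 1 (-0.36 ± 0.08, adjusted p = 0.00337).

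Of 15 tested genes of the hypoxia response 1, 2, 2 and 2 were called lower and 2, 0, 5 and 5 higher. Of all genes tested, 4.80%, 3.69%, 4.97% and 7.90% were lower and 8.52%, 6.47%, 14.2% and 17.3% higher. Adm, a vasodilator peptide, was at 0.95 ± 0.27 (adjusted p = 0.00911), the glucose transporter Slc2a1 at 1.01 ± 0.22 (adjusted p = 0.0011) and Ndrg1 at 1.08 ± 0.22 (adjusted p = 0.000523) at day 21. Pdk1, which restrains pyruvate dehydrogenase, went the other way at days 1 and 3, at -0.61 ± 0.17 (adjusted p = 0.015) and -0.86 ± 0.19 (adjusted p = 0.00358).

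The counts that follow stand beside 4.80%, 3.69%, 4.97% and 7.90% lower and 8.52%, 6.47%, 14.2% and 17.3% higher of all genes tested on the 4 days. Of 7 tested neutrophil markers 5, 3, 4 and 5 were called higher on the 4 days and none lower. Of 6 lymphocyte markers 0, 0, 2 and 2 were lower and 0, 0, 1 and 1 higher. Of 8 markers of sinusoidal endothelium 5, 2, 0 and 2 were lower and 0, 1, 1 and 2 higher. None of 7 striated muscle genes was called. The mean over the 10 muscle genes was 6.02 in BDL day 21 replicate 2, against 4.67 to 4.98 in the other arrays of that group. In sham at day 3 it was 5.48 in replicate 1 and 4.79 in replicate 2. Of 4 tested genes of brown fat and heat production, Elovl3 was lower at days 3, 7 and 21, at -4.62, -3.68 and -5.90. Ppargc1a, also of this list, went the other way at day 3, where it was called higher at 1.44.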
